A study of Mus musculus with 12 samples.

Results

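The 36 genes described here act in G2 phase and mitosis, and were taken by their symbols from a raw count table of 23420 genes measured in mouse kidney. All 36 had a row in the table. RNA of 12 kidneys of male C57BL/6J mice aged 8 to 15 weeks was sequenced, with 4 kidneys in each of 3 groups. By the methods, the middle part of each kidney went to histology and the rest was frozen for RNA and protein. The control kidneys were removed at nephrectomy, according to the methods of the study, although their labels carry the same 20 min of ischemia and 24 h of reperfusion as those of the other kidneys. In the 8 ischemic kidneys the vessels of the renal pedicle had been closed for 20 min and the kidney was taken after 24 h of reperfusion. In the study, mice were either conscious during the closure, apart from brief isoflurane, or anaesthetised with ketamine and xylazine. Within the labels of each ischemic kidney, title and group field contradict each other. Set A is used here for the 4 kidneys whose titles name anaesthesia while their group field gives conscious, and set B for the 4 whose titles name conscious mice while their group field gives anaesthesia. The sets were therefore compared under these names and no direction was assigned to anaesthesia. Surgery to place the clamp, any removal of the other kidney, the ischemia itself and the additional time until sampling cannot be told apart here. The reason is that no kidney of a sham-operated mouse was analysed. The labels tie no kidney to an animal, so the p-values measure the spread between these samples, which may be technical in part.

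Tubular cells of the healthy adult kidney rarely divide. After ischemia, surviving epithelial cells lose part of their differentiated programme, re-enter the cell cycle and replace lost neighbours, and DNA synthesis comes before mitosis in that sequence. Entry into mitosis is driven by Cdk1 bound to cyclins A and B, with Plk1 and the Aurora kinases acting beside it. Kinesins and their partners then build the spindle, kinetochores attach chromosomes to it, the spindle checkpoint holds the cell until all are attached, the anaphase-promoting complex releases the sister chromatids, and a contractile ring divides the cell. Many of these genes are transcribed late in the cell cycle from promoters that carry CCAAT boxes, which bind NF-Y, and a cell cycle homology region, which binds MuvB complexes. Bulk kidney tissue was sequenced, so the counts do not show which cells carried these transcripts.

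Between 15367342 and 44793350 counts were assigned to genes per kidney. Levels are given as CPM, the count per 1000000 counts of the total scaled by TMM, a factor that lay between 0.968 and 1.03. A count of 3, taken as the counting floor of a library, corresponded to between 0.0661 and 0.19 CPM. This floor covers counting error only, because reads without molecular identifiers are not independent molecules. The replicates differed from each other far beyond sampling noise, with chi-square values of 48.94 or more per degree of freedom for each pair within a group and a common biological coefficient of variation of 0.762. A count of 0 in this table does not show that a transcript was absent. B2m, which nearly all cells express, was listed at 0 in 8 of the 12 kidneys and Cst3 in 9, while Hprt lay between 1521 and 3513 counts. Of the 36 mitosis genes, 27 had a 0 beside more than 9 counts within the same group. That share of 75.0% compares with 40.9% of the 14213 genes that had any count.

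Summed over all 36, the mitosis genes stood at a higher level in every ischemic kidney than in any control kidney, while few of them passed the test singly. Top2a, which untangles DNA, and the kinesins Kif4 and Kif23 rose in both sets, and every ischemic kidney lay above every control kidney for each of them. Plk1 rose in set B. Cdk1, listed at 0 in all 4 controls, passed the test in both sets. Cks2, a small partner of the cyclin-dependent kinases, fell in both sets, to 0.516 times the control mean in set A and 0.509 times in set B. In bulk RNA, fewer cells of a type and less RNA per cell cannot be told apart, and this holds for every level given here.

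The test was edgeR's quasi-likelihood F-test, two-sided, with p-values adjusted by Benjamini-Hochberg over the 11664 genes that passed a filter on low counts, and a threshold of 0.05. Of the 36 genes, 22 passed the filter and 14 did not. Among the latter, 3 genes, Cdca3, Bub1 and Cenpa, were listed at 0 in all 12 kidneys. In set A against control, 4 of the 36 rose, where 10.5% of all genes tested did, and 1 fell, where 11.7% did. A further 17 were tested and not called. An unadjusted p under 0.05 was found for 10 of the 22, and for 3678 of the 11664 genes. In set B against control, 5 rose, where 10.9% of all genes tested did, and 1 fell, where 11.9% did. There 16 were not called and 12 had an unadjusted p under 0.05, as had 3812 of the 11664 genes. The same control kidneys served both comparisons. The set A count dropped to 3 when set A replicate 4 was left out, since Cdk1 and Kif23 were then no longer called. Members could pass the filter through the ischemic kidneys alone, as Cdk1, Foxm1 and Hmmr did, so no share of the tested members is read as a result.

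All kidneys of set A lay above all control kidneys for 8 of the 36 genes, which were Ccna2, Cdk1, Foxm1, Plk1, Kif4, Kif23, Prc1 and Top2a. Of the 14213 genes with a count, 10.3% showed this. In set B the separation held for 9 genes, Ccna2, Plk1, Kif4, Tpx2, Ube2c, Kif23, Prc1, Anln and Top2a, beside 9.52% of all genes. A total of 6 genes, Ccna2, Plk1, Kif4, Kif23, Prc1 and Top2a, lay above every control in all 8 ischemic kidneys, beside 6.93% of all genes. Cks2 alone lay below every control in every kidney of set B, where 12.5% of all genes did, and no member did so in set A, where 13.0% did.

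**Figure D1:**
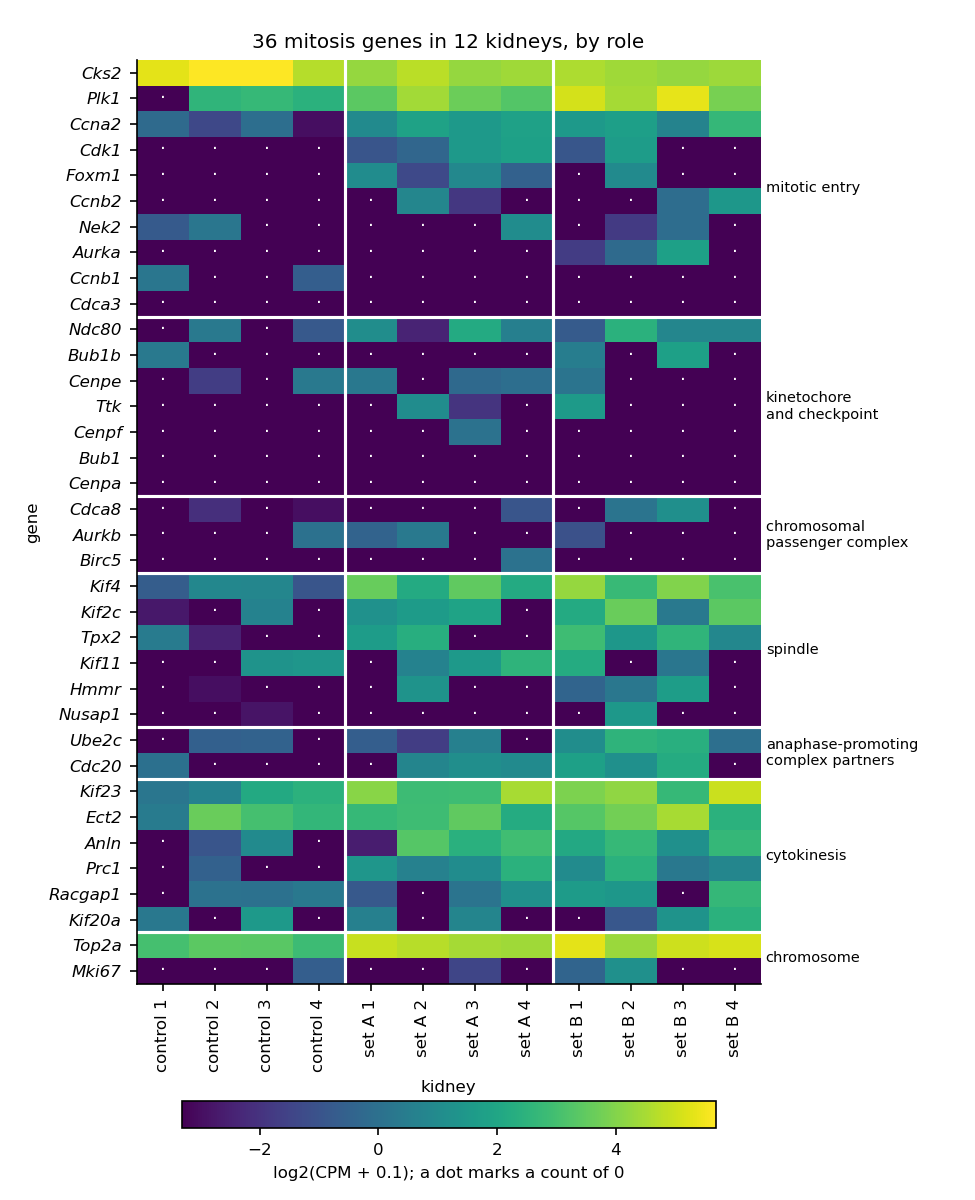
Level of each of the 36 genes (rows, grouped by role and ordered by mean CPM) in each kidney (columns), as log2(CPM + 0.1), with a dot where the count was 0. All ischemic columns except set B replicate 4 hold more filled cells than any control column, while Cks2 in the top row is brightest in controls 1 to 3 and Cdca3, Bub1 and Cenpa are at 0 throughout.

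The promoters of these genes were then searched for the shared elements named above. RefSeq promoter windows of the GRCm38.p6 assembly, 250 bases before to 50 bases after the transcription start, were matched for 31 of the 36 genes in 33 windows. Kif20a, Tpx2, Aurkb, Foxm1 and Ccna2 were not matched. CCAAT on either strand stood in 84.8% of the member windows and in 37.4% of all 32851 windows. The cell cycle homology form TTTGAA stood in 78.8% of the member windows and in 17.9% of all, TTTAAA in 27.3% and 13.2%, and TTTCGAA in 3.03% and 0.746%. CCAAT together with any of these 3 forms was present in 75.8% of the member windows and in 11% of all. The E2F-type letters TTTCCCGC, TTTCGCGC, TTTGCCGC and TTTGGCGC were found in 3.03% of the member windows, that of Cdk1, and in 2.26% of all. A homology form was present in 16 of the 18 matched members that were tested and in 11 of the 13 that were too low to test. Such a match is a description of letters and not a binding site shown to be used.

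The 4 matched members with the highest mean CPM and an element upstream of the start are shown, because they include the gene that fell and 3 genes that rose. Each line gives the 250 bases before the start, 5′ to 3′ on the coding strand, with CCAAT or its complement and the 3 homology forms or their complements in capitals. Cks2 lies at chr13:51644982-51645231 on the plus strand, Top2a at chr11:99024190-99024439 on the minus strand, Plk1 at chr7:122159185-122159434 on the plus strand and Kif23 at chr9:61946800-61947049 on the minus strand.
Cks2: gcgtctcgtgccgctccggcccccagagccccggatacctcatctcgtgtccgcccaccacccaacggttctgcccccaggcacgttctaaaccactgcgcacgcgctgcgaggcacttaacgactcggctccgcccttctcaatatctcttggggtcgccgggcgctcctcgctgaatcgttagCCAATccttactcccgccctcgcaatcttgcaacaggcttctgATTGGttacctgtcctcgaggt
Top2a: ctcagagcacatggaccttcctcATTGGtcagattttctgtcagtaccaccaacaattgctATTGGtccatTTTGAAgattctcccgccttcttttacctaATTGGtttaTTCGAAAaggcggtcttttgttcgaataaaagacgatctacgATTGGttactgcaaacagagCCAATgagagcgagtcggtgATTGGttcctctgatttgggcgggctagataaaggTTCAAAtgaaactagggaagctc
Plk1: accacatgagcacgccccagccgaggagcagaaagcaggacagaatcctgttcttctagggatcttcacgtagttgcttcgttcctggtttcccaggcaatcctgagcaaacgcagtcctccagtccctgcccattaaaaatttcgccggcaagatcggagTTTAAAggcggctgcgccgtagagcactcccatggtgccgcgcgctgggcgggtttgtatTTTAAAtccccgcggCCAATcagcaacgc
Kif23: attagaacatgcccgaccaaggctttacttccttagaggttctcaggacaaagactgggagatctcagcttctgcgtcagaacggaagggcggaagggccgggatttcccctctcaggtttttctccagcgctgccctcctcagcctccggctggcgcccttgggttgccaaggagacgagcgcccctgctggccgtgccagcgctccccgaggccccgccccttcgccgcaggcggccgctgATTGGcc
Top2a carried 6 CCAAT boxes and 3 homology forms in its window, the last of them at positions -23 to -18 from the start. Plk1 carried TTTAAA from positions -89 and -29, and Kif23 a CCAAT box on the complementary strand at positions -7 to -3. Cks2 carried 4 CCAAT boxes in its window and none of the 3 homology forms. Nek2, Bub1 and Nusap1 were the other matched members without a homology form in these windows.

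**Figure D2:**
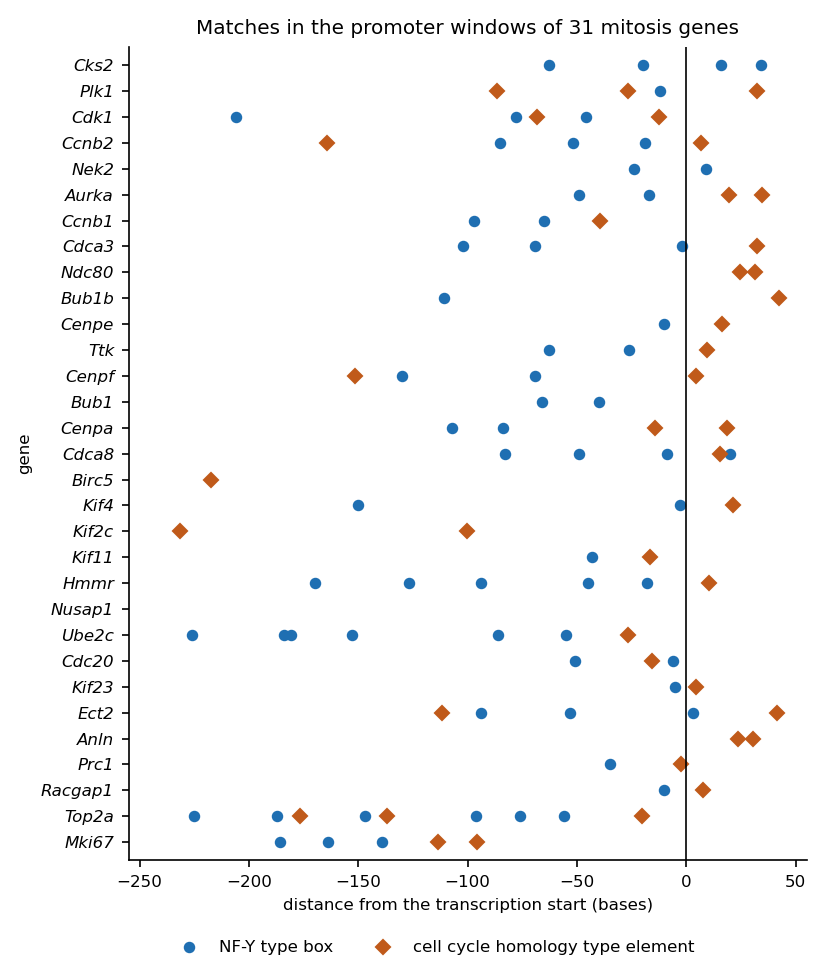
Distance in bases from the transcription start of each CCAAT box (circles) and each cell cycle homology form (diamonds) in the promoter windows of the 31 matched genes. Circles and diamonds lie on both sides of the start at 0, and the rows of Cks2, Nek2, Bub1 and Nusap1 hold no diamond.

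Cks2 (chr13:51645232-51650660 in the GENCODE annotation of GRCm38) had the highest mean CPM over the 12 kidneys of the 10 genes of mitotic entry, while in set B that of Plk1 was higher. Its level was 39.4, 51.3, 50.7 and 25.5 CPM in controls 1 to 4, 19.2, 26.9, 19.2 and 20.9 CPM in set A, and 23.9, 21.2, 19.1 and 20.6 CPM in set B. The lowest control therefore overlapped with the highest kidney of set A and with none of set B. Cks2 fell by 0.95 on the log2 scale in set A (SE 0.252, adjusted p = 0.00855, edgeR) and by 0.97 in set B (SE 0.252, adjusted p = 0.00733, edgeR). Cks1b, its close relative and a member of the wider mitosis list, was chosen after its values were seen and went the other way. Cks1b lay at 5.13 ± 2.57 CPM (SD, n = 4) in the controls, 27.2 ± 6.32 for set A and 29.3 ± 9.60 for set B, with log2 fold changes of 2.41 (SE 0.413, adjusted p = 0.000194, edgeR) and 2.52 (SE 0.415, adjusted p = 0.000128, edgeR). How reads shared between these relatives or their processed copies were counted is not given in the sources used here.

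Plk1 (chr7:122159439-122169873), the kinase that acts at centrosomes, kinetochores and the midbody, was listed at 0 in control 1 and at 5.82, 6.40 and 5.25 CPM in the other controls. It lay at 10.7, 21.3, 12.6 and 9.57 CPM for set A and at 34.1, 21.9, 40.9 and 14.1 CPM for set B, so that all 8 ischemic kidneys exceeded all controls. The rise in set B was 2.66 on the log2 scale (SE 0.723, adjusted p = 0.0103, edgeR). In set A the log2 fold change of 1.62 did not pass (SE 0.699, adjusted p = 0.112, edgeR), and it passed without control replicate 1, with a log2 fold change of 1.23 and an adjusted p of 0.0449.

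Cdk1 (chr10:69335146-69352938), the kinase that drives mitosis, had no count in any control. Its counts were 13, 16, 125 and 56 for set A and 13, 48, 0 and 0 for set B. Set A had a mean of 1.81 ± 1.48 CPM and set B one of 0.868 ± 1.46 CPM (SD, n = 4). No fold is given against the controls, because a 0 in this table does not bound the level. The adjusted p was 0.0337 for set A and 0.0492 for set B in edgeR. Both calls depended on which kidneys were included. In set A the call was lost without any 1 of the 4 controls and without set A replicate 3 or 4, at adjusted p of 0.065 to 0.0758. In set B it was lost without any 1 control, any 1 kidney of set A, or set B replicate 1 or 2, at adjusted p of 0.0575 to 0.163.

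Ccna2, cyclin A2, had 16, 11, 22 and 1 counts in the controls, 60, 82, 129 and 57 for set A and 85, 52, 32 and 99 for set B. The 8 ischemic kidneys, between 1.55 and 6.28 CPM, lay above the highest control at 0.849 CPM. The log2 fold changes of 2.6 and 2.86 did not pass (SE 1.15 and 1.16, adjusted p = 0.121 and 0.0865, edgeR). Foxm1, the transcription factor of late cell cycle genes, was listed at 0 in the controls, at 63, 7, 79 and 10 counts for set A and at 0, 30, 0 and 0 for set B (adjusted p = 0.0686 and 0.103, edgeR). Nek2, a centrosome kinase, had counts in 2 controls, 1 kidney of set A and 2 of set B, and its log2 fold changes of 0.34 and -0.60 were within their SE of 2.63 and 2.65.

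The remaining mitotic entry genes did not pass the filter. Ccnb1, cyclin B1 and the textbook partner of Cdk1, had 22 and 21 counts in controls 1 and 4 and none in the other controls or in any of the 8 ischemic kidneys. Ccnb2, cyclin B2, had no count in the controls, 39 and 8 counts in 2 kidneys of set A, and 17 and 41 counts in 2 kidneys of set B. Aurka, the centrosomal Aurora kinase, had counts only in set B, with 6, 12 and 69 in replicates 1 to 3. Cdca3, which helps to trigger mitotic entry, was listed at 0 in every kidney.

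Of the 7 kinetochore and checkpoint genes, 5 could not be tested and none passed. Ndc80, the microtubule-binding subunit of the outer kinetochore, had 0, 44, 0 and 18 counts in the controls, 64, 2, 201 and 23 for set A and 15, 84, 34 and 26 for set B. The groups overlapped, and the log2 fold changes of 2.27 and 2.47 did not pass (SE 1.69 and 1.70, adjusted p = 0.419 and 0.362, edgeR). Cenpe, a kinesin of the kinetochore, was above 3 counts in 2 controls, 3 kidneys of set A and 1 of set B (adjusted p = 0.871 and 0.95, edgeR). Bub1b, the checkpoint protein BubR1, had 24 counts in control 1, none in set A, and 39 and 69 counts in set B replicates 1 and 3. Ttk, the checkpoint kinase Mps1, had 46 and 7 counts in set A replicates 2 and 3 and 87 in set B replicate 1. Cenpf had 43 counts in set A replicate 3 and none elsewhere. Bub1, the checkpoint kinase, and Cenpa, the histone of the centromere, were at 0 throughout.

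None of the 3 subunits of the chromosomal passenger complex in the list passed the filter. Aurkb, its kinase, had 35 counts in control 4, 20 and 27 counts in set A replicates 1 and 2, and 11 in set B replicate 1. Birc5, survivin, had 16 counts in set A replicate 4 and none in the other 11 kidneys. Cdca8, borealin, had 5 and 1 counts in controls 2 and 4, 7 in set A replicate 4, and 16 and 44 in set B replicates 2 and 3. Their summed level was at most 2.13 CPM in any kidney and was 0 in controls 1 and 3, set A replicate 3 and set B replicate 4.

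Of the 7 roles, the 6 spindle genes were the only group whose sum separated the 3 groups of kidneys. Their summed level was 1.82, 1.79, 5.59 and 2.95 CPM in the controls, 17.3, 16.3, 17.6 and 10.1 CPM in set A, and 35.8, 25.1, 26.7 and 20.8 CPM in set B. No kidney of one group overlapped with another group, and the mean in set A was 5.04 times and in set B 8.91 times that of the controls. The mitotic entry genes summed to 31.3 to 58.4 CPM in the controls, 34.2 to 54.3 CPM for set A and 43.6 to 66.6 CPM for set B, and all 3 ranges overlapped. The cytokinesis genes summed to 3.40 to 18.1 CPM in the controls, below all ischemic kidneys, while set A at 25.7 to 42.2 CPM overlapped with set B at 34.1 to 55.6 CPM. Kif4 (chrX:100625737-100727214), a kinesin that binds chromosome arms and organises the spindle midzone, rose in both sets. Its level was 0.527, 1.69, 1.66 and 0.418 CPM in the controls, 12.1, 4.49, 11.2 and 4.40 CPM for set A and 18.8, 6.64, 15.6 and 8.50 CPM for set B. The rise was 2.90 on the log2 scale in set A (SE 0.636, adjusted p = 0.00197, edgeR) and by 3.52 in set B (SE 0.652, adjusted p = 0.000422, edgeR).

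Kif2c, a kinesin that shortens microtubules at the kinetochore, had 1, 0, 39 and 0 counts in the controls, 71, 69, 166 and 0 for set A and 132, 192, 24 and 166 for set B. Its log2 fold changes of 2.52 and 4.18 did not pass (SE 1.53 and 1.64, adjusted p = 0.291 and 0.0741, edgeR). Without control replicate 3, the control with 39 counts, they passed at adjusted p of 0.009 and 0.00272. Without set A replicate 4 the set B comparison also passed, at 0.0462. In all, Kif2c passed in set B in 6 of the 19 alternatives and did not pass in the other 13. Tpx2, which loads the Aurora kinase on spindle microtubules, lay between 0 and 1.25 CPM in the controls, between 0 and 4.92 CPM in set A and between 1.71 and 7.34 CPM in set B (adjusted p = 0.379 and 0.184, edgeR). Kif11, the kinesin Eg5 that pushes spindle poles apart, was as high as 2.53 CPM in a control and at 0 in 2 kidneys of set B (adjusted p = 0.827 and 0.972, edgeR). Hmmr had 1 count in 1 control, 56 in 1 kidney of set A, and 19, 17 and 64 in 3 of set B (adjusted p = 0.17 and 0.113, edgeR). Nusap1, which was not tested, had 42 counts in set B replicate 2 and 1 count in control 3.

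Cdc20, the activator of the anaphase-promoting complex, and Ube2c, its ubiquitin-conjugating enzyme, were both tested and neither passed. Cdc20 had 19 counts in control 1 and none in the other controls, against 0, 38, 95 and 31 for set A and 101, 35, 95 and 0 for set B. The log2 fold changes were 2.62 and 3.49 (SE 2.11 and 2.18, adjusted p = 0.464 and 0.301, edgeR), and without control replicate 1 they passed at adjusted p of 0.0421 and 0.0301. Ube2c lay between 0 and 0.617 CPM in the controls, between 0 and 1.43 CPM for set A and at 2.02, 5.63, 5.08 and 0.888 CPM for set B. Its log2 fold changes were 0.88 (SE 1.73, adjusted p = 0.827, edgeR) and 3.49 (SE 1.88, adjusted p = 0.211, edgeR), and set B lay above all controls while set A overlapped with them. Ube2c passed in set B in 1 of the 19 alternatives and not in the other 18. Subunits of the complex, with the coactivator Fzr1 and the enzyme Ube2s, were read as a list of 16 genes, of which 15 were tested. Anapc15 alone rose, in both sets, where 10.5% and 10.9% of all genes tested did, so this count is not read as a result.

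All 6 cytokinesis genes were tested and 1 rose. Kif23 (chr9:61915905-61946774), the centralspindlin kinesin that builds the midbody, lay at 1.06, 1.51, 4.36 and 5.49 CPM in the controls, 16.9, 7.14, 7.27 and 22.8 CPM for set A and 15, 18.2, 6.53 and 30.7 CPM for set B. It rose by 2.12 on the log2 scale in set A (SE 0.587, adjusted p = 0.0121, edgeR) and by 2.50 in set B (SE 0.595, adjusted p = 0.00392, edgeR). Without set A replicate 4, its highest kidney in that set, the set A call was lost at an adjusted p of 0.0566. Racgap1, the partner of Kif23 in centralspindlin, had log2 fold changes of 0.27 and 1.96 that did not pass (SE 1.72 and 1.77, adjusted p = 0.956 and 0.523, edgeR).

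Ect2, which activates RhoA at the division plane, lay at 1.25, 12.3, 8.06 and 6.06 CPM in the controls, 6.38, 7.27, 11.1 and 4.58 CPM for set A and 9.87, 13.6, 22.9 and 5.27 CPM for set B. The groups overlapped, with log2 fold changes of 0.08 (SE 0.580, adjusted p = 0.96, edgeR) and 0.90 (SE 0.584, adjusted p = 0.329, edgeR). Anln, the ring scaffold anillin, lay at 0, 0.416, 1.89 and 0 CPM in the controls, 0.0635, 9.80, 5.20 and 7.41 CPM for set A and 4.24, 6.39, 2.18 and 6.35 CPM for set B. Its set B kidneys all exceeded the controls and its log2 fold changes were 3.28 and 3.05 (SE 1.40 and 1.39, adjusted p = 0.109 and 0.131, edgeR). Prc1, which bundles midzone microtubules, was detected in 1 control, at 0.598 CPM, and in all 8 ischemic kidneys, at 1.11 to 5.30 CPM. The log2 fold changes of 4.16 and 3.99 did not pass (SE 1.69 and 1.68, adjusted p = 0.0866 and 0.0968, edgeR). Kif20a had log2 fold changes of -0.36 and 1.04 within their SE of 2.14 and 2.16.

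Of the 2 chromosome genes, 1 had the smallest adjusted p of the 36 in both comparisons with control and the other could not be tested. Top2a (chr11:98992943-99024189), topoisomerase II alpha, lay at 8.10, 10.6, 10.3 and 7.05 CPM in the controls, 30.6, 26.1, 21.9 and 21.0 CPM for set A and 39.5, 20.0, 32.1 and 34.8 CPM for set B. The lowest ischemic kidney, at 20.0 CPM, stood well above the highest control, at 10.6 CPM. The mean was 9.0 ± 1.70 CPM in the controls (SD, n = 4), 24.9 ± 4.41 for set A and 31.6 ± 8.33 for set B. It rose by 1.47 on the log2 scale in set A (SE 0.283, adjusted p = 0.000617, edgeR) and by 1.81 in set B (SE 0.286, adjusted p = 8.08e-05, edgeR). Mki67, the proliferation antigen Ki-67, had 21 counts in control 4, 12 in set A replicate 3, and 19 and 35 in set B replicates 1 and 2, and was at 0 in the other 8 kidneys. Mki67 covers 10.1 kb of exon sequence and Top2a 9.01 kb.

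**Figure D3:**
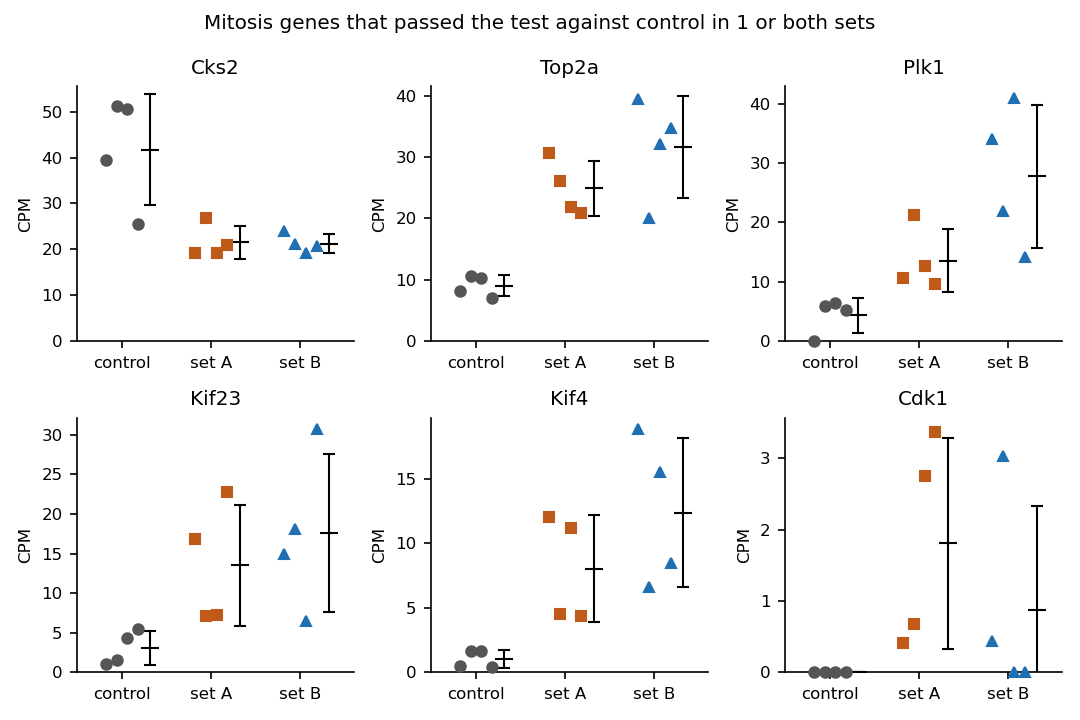
CPM in each kidney for the 6 genes that passed the test in 1 or both sets, with a bar for the mean and SD (n = 4) to the right of each group, cut at 0 for Cdk1. Top2a, Kif23, Kif4 and Plk1 lie above every control in all 8 ischemic kidneys, Cdk1 is at 0 in the controls and in 2 kidneys of set B, and the mean of Cks2 is lower in both sets.

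The exon length of the 22 tested genes had a median of 5.41 kb and that of the 14 untested genes a median of 4.25 kb, against 4.73 kb and 2.24 kb for all tested and untested genes of the table. Per kb of exon sequence, Cks2 had the highest level of the 36 in the controls at 60.3 CPM per kb, followed by Plk1 at 1.99 and Ect2 at 1.28. In set B the levels per kb were 30.7 for Cks2, 12.6 for Plk1, 3.51 for Top2a and 2.40 for Ect2. Kif23 and Kif4, at 2.23 and 2.25 CPM per kb in set B, were level with each other.

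To include the genes that were too low to test, the CPM of the members was summed per kidney. The sum over all 36 was 57.1, 88.6, 92.5 and 57.1 CPM in the controls, 114, 127, 117 and 119 CPM for set A and 183, 160, 177 and 157 CPM for set B. Cks2 alone gave 25.5 to 51.3 CPM of the control sums. Without it, a choice made after its values were seen, the sum of the other 35 genes was 17.7, 37.3, 41.9 and 31.6 CPM in the controls, 95.1, 100.5, 97.8 and 97.7 CPM for set A and 159, 139, 158 and 137 CPM for set B. The groups did not overlap in either form, and the means without Cks2 were 32.1 ± 10.5, 97.8 ± 2.20 and 148 ± 12.1 CPM (SD, n = 4), or 3.04 times the control mean in set A and 4.62 times in set B. Over all 36 genes the means were 1.62 and 2.29 times that of the controls. No p is given for these sums, because the members were chosen with results of these data known.

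The same order of the groups was found among genes of low level. The 30 genes with a mean under 5 CPM over the 12 kidneys summed to between 5.48 and 11.1 CPM in the controls, 18.4 and 35.5 CPM for set A and 40.1 and 58.8 CPM for set B. The number of members above 3 counts was 12, 15, 13 and 13 in the controls, 18, 20, 23 and 19 for set A and 24, 23, 22 and 16 for set B. The kidney with 16, set B replicate 4, had the smallest total of the series. Members lay above 3 counts in 36.8% of the control values, 55.6% of those of set A and 59.0% of those of set B, whereas over all genes with a count the shares were 78.3%, 77.0% and 74.8%.

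**Figure D4:**
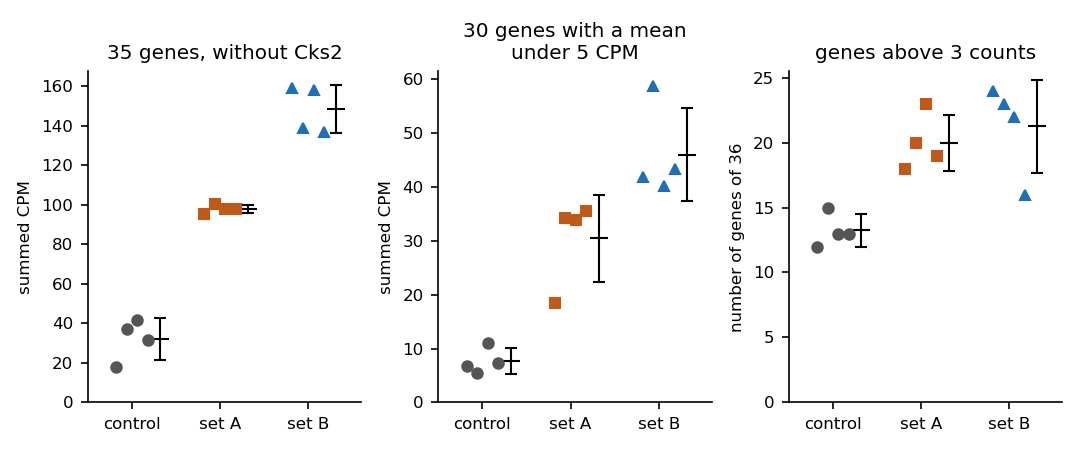
Summed CPM per kidney of 35 genes (without Cks2) and of the 30 genes with a mean under 5 CPM, and the number of the 36 genes above 3 counts, with a bar for the mean and SD (n = 4) beside each group. Both sums separate the 3 groups, with set B at 137 to 159 CPM above set A at 95.1 to 100.5 CPM in the first panel, whereas the number of genes detected overlaps between set A and set B.

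Between the 2 ischemic sets no member passed the test. The smallest unadjusted p of the 22 was 0.147, for Plk1, whose log2 difference of set B minus set A was 1.04 (SE 0.685, adjusted p = 1.0, edgeR), and none was under 0.05. DESeq2 called none as well, with 2 members at an unadjusted p under 0.05, and limma-trend none, with 1. Over all 11664 genes 1 was called, or 0.00857%, and 587 had an unadjusted p under 0.05. No gene of the 36 had every set B kidney above every set A kidney, and the share of all genes that did was not counted. By mean CPM 21 members were higher in set B and 11 lower. The log2 difference was above 0 for 14 of the 22 tested members and for 49.2% of all genes tested.

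The sums lay apart, and how often sums over other genes do so was not tested. The highest set A kidney had 100.5 CPM without Cks2 and the lowest set B kidney 137 CPM, and the set B mean was 1.52 times that of set A, or 1.42 times over all 36. Plk1 accounted for 14.2 CPM of the difference between the means over all 36, or 28.3% of it, followed by Top2a with 6.74 CPM, Ect2 with 5.57 CPM and Kif2c with 4.86 CPM. Among the 30 genes of low level the lowest set B kidney, at 40.1 CPM, also lay above the highest set A kidney, at 35.5 CPM. The highest value among the 8 ischemic kidneys was found for 7 members in set B replicate 3, for 6 in replicate 2, for 5 in replicate 4 and for 4 in replicate 1, and in set A for 2, 3, 1 and 4 members in replicates 1 to 4. With total counts as the only scaling, the 35 genes summed to 95.8 to 101.9 CPM for set A and to 136.5 to 161.5 CPM for set B.

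Genes of the surrounding steps were read from lists that were likewise chosen with earlier results known. Of 63 other mitosis genes, 25 were tested and 16 were at 0 in all kidneys. In set A 2 of the tested genes rose and 1 fell, where 10.5% and 11.7% of all genes tested did, and in set B 3 rose and 1 fell, where 10.9% and 11.9% did, so these counts lay near the background. Cks1b and Arhgap11a, a cytokinesis gene, rose in both sets, Iqgap3 in set B, and Cit, citron kinase of the midbody, fell in both. Ckap5, a microtubule polymerase, and Bub3, a checkpoint protein, had log2 fold changes of 0.28 and 0.76 for set A and 0.43 and 0.42 for set B that did not pass. All 8 condensin subunits were tested. Ncapd2 rose in set B, and Ncaph2 and Smc4 did not pass. Ncaph and Ncapg passed the test in both sets, but they are listed at 0 in every control and entered the test through the ischemic kidneys alone.

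S phase comes before mitosis, and 40 of its genes were read in the same way. Of the 30 that were tested, 11 rose in set A and 8 in set B, where 10.5% and 10.9% of all genes tested did. These counts include Prim2 in both sets and Uhrf1 in set A, named after their values were seen, which are listed at 0 in every control and entered the test through the ischemic kidneys alone, so they are not read against that share. Mcm4, part of the replicative helicase, lay at 29.6 ± 6.13 CPM in the controls (SD, n = 4), 94.3 ± 25.4 for set A and 111 ± 28.9 for set B, with log2 fold changes of 1.67 and 1.90 (adjusted p = 1.6e-05 and 3.8e-06, edgeR). Rrm1, a subunit of ribonucleotide reductase, and Pola1, a replicative polymerase, also rose in both sets. The summed S phase level was 153 to 180 CPM in the controls, 267 to 432 CPM for set A and 359 to 578 CPM for set B, so that the 2 ischemic sets overlapped here. As a percentage of the S phase sum, all 36 mitosis genes amounted to 32.5% to 54.3% in the controls, 27.1% to 44.5% for set A and 31.7% to 44.6% for set B, and the 3 groups overlapped. Without Cks2, a choice made after its values were seen, the ranges were 10.1% to 23.3%, 22.6% to 36.6% and 27.5% to 38.7%, so the order of the groups in this ratio turned on that 1 gene.

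**Figure D5:**
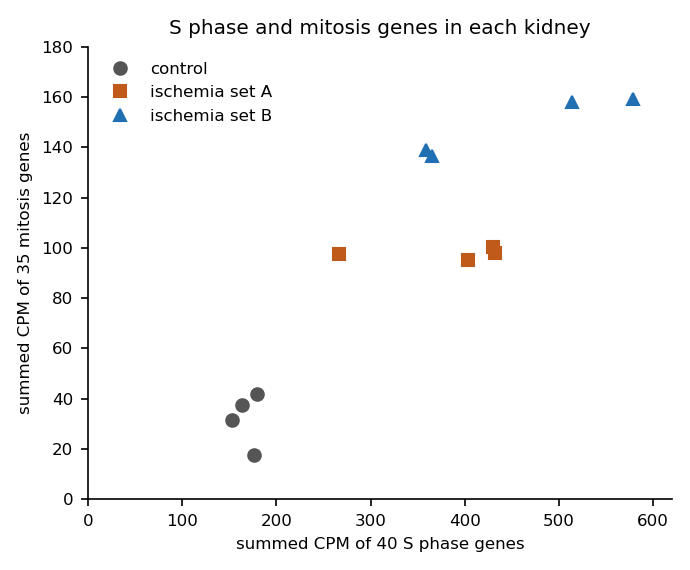
Summed CPM of the 35 mitosis genes without Cks2 (vertical axis) against the summed CPM of 40 S phase genes (horizontal axis), with 1 symbol per kidney. The controls lie at the lower left, set A at 95.1 to 100.5 CPM of mitosis genes, and set B above it over a range of S phase levels that overlaps with set A.

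Of 12 G1 cyclins, kinases and E2F factors, 11 were tested, and 5 rose and none fell in each set, where 10.5% and 10.9% of all genes tested rose. Cdk4, Cdk2 and Myc, the 3 with the highest mean CPM, rose in both, Myc with log2 fold changes of 3.56 and 3.35 (adjusted p = 2e-08 and 4.16e-08, edgeR). Of 19 cell cycle inhibitors and arrest genes, 14 were tested. Of these, 4 rose for set A and 5 for set B, where 10.5% and 10.9% of all genes tested did. None fell, where 11.7% and 11.9% of all genes tested did. Btg1, Gadd45a and Sfn rose in both sets. Cdkn1a, the inhibitor p21, passed in set B (adjusted p = 0.0262, edgeR) and not in set A (adjusted p = 0.0633, edgeR). Cdkn1a was listed at 0 in every control and entered the test through the ischemic kidneys alone. The set B count, which includes Cdkn1a, is therefore not read against the share of all genes. All 15 regulators of the DREAM and MuvB complexes were tested, and E2f4 rose in both sets, Rbbp4 and Rbl2 fell in both, and Nfyc and Tfdp2 fell in set A. Beside these 15 genes, 10.5% of all genes tested rose and 11.7% fell in set A. In set B the shares were 10.9% and 11.9%.

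The cellular markers of the same kidneys moved with these changes, and their part in the levels of the mitosis genes was not tested. Of all genes tested, 10.5% rose and 11.7% fell in set A, and 10.9% rose and 11.9% fell in set B. All 7 proximal tubule markers fell in both sets, and their summed level was 6566 to 7293 CPM in the controls, 676 to 1255 CPM for set A and 385 to 1308 CPM for set B. Of 8 markers of injured tubule 7 rose in both sets, with sums of 401 to 426, 2498 to 3247 and 2082 to 2541 CPM. Of 6 stromal markers 3 rose in both sets, Col1a1, Acta2 and Col3a1, with sums of 525 to 722, 1390 to 3690 and 1650 to 3106 CPM. Of 12 leukocyte markers 11 were in the table and 6 tested, none rose and 2 fell, Csf1r and Cd3e, and the sum was 45.6 to 68.8 CPM in the controls, 12.2 to 30.2 CPM for set A and 13.7 to 35.6 CPM for set B. Csf1r alone gave 40.7 to 62.7 CPM of the control sums, and the other 4 tested leukocyte markers did not pass. Cd79a and S100a8 were at 0 in all kidneys and Ly6g was not analysed here. Of 6 endothelial markers 5 were tested and none passed, with sums of 78.7 to 120.6, 56.6 to 93.5 and 64.5 to 111 CPM. Among 9 markers of other nephron segments, Slc12a1 fell in both sets and Cdh16 in set A, and their sums were 2502 to 2858, 1057 to 1427 and 988 to 1841 CPM. Red cell and erythroid precursor markers summed to 99.1 to 153 CPM in the controls, 29.1 to 57.7 CPM for set A and 17.8 to 35 CPM for set B, with 2 of the 3 tested lower in set A and all 3 in set B, and Hba-a1 and Hba-a2 at 0. Hbb-bt was not analysed here.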

How the data were processed

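RNA of 12 kidneys was prepared as stranded mRNA libraries and sequenced as single reads. According to the methods and the submitters' processing notes, STAR was used to map the reads to mm10 and HTSeq to count them, and the authors deposited these counts for 23420 genes as they were, with no normalization. The strand setting, the annotation release and the handling of multimapping or duplicate reads are not given in the sources used here. The 36 genes and the other lists were chosen with earlier results of these data known.

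The analysis used edgeR 4.0.16 under R 4.3.3. The function filterByExpr (minimum count 10, minimum total 15) kept 11664 genes, and TMM factors scaled the libraries. A model with 3 group coefficients was fitted to all 12 kidneys and tested by the quasi-likelihood F-test with Benjamini-Hochberg adjustment and a threshold of 0.05. On simulated counts for set A against control over 11664 genes, 26 of 100 genes changed 2-fold and 55 of 100 changed 4-fold were recovered. Standard errors are not given where a group was at 0. Values in every kidney were planned for the 2 or 3 members of each role with the highest mean CPM and for members that did not pass the filter or the test, and Cdk1 was added because it passed. Alternatives used DESeq2 1.42.0, limma 3.58.1 with a prior count of 2, RLE factors, total counts, no filter, 2 groups only, a replicate block, and the omission of each kidney. Symbols replaced since the table was made were matched through RefSeq synonyms, and gene positions and exon lengths came from GENCODE for GRCm38. Figures were drawn with matplotlib 3.10.9 in Python 3.11.15. Some items of the S phase and red cell lists are not reported here.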

Additional observations from a re-analysis of the deposited data

Results flagged for a closer look

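In 3 of 39 groups of 4 kidneys examined, over 11 members and 2 sums, 1 kidney stood far from the other kidneys of its group. The chance rate of about 1 group in 20 assumes normally distributed values. It does not hold where most kidneys of a group are at or near 0, so the 3 groups are not read against it. Cdk1 in set B replicate 2 lay at 3.04 CPM, where the other kidneys of that set lay between 0 and 0.438 CPM. Kif2c in control replicate 3 lay at 1.5 CPM, where the other controls lay between 0 and 0.0479 CPM. Cdc20 in control replicate 1 lay at 0.911 CPM, where the other controls were at 0.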

How the results depend on the processing

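In set A against control, 5 members were called, and DESeq2 called 9 and limma-trend 8, while leaving out 1 kidney gave 3 to 6. In set B against control, 6 were called, and DESeq2 called 10 and limma-trend 11, while leaving out 1 kidney gave 5 to 7. Ccna2 and Prc1 were among the added rises with both tools in both sets. The median log2 fold change of the tested members in set A was 2.19, and 1.60 with no filter, 2.47 with the replicate block, 1.90 with only the 2 groups compared, 1.66 with DESeq2, 1.89 with limma-trend and 1.44 to 2.18 without 1 kidney. In set B it was 2.76, and 3.23 with the replicate block and 2.45 to 2.85 without 1 kidney. Over all genes tested the medians were -0.02 and -0.02. The medians of the members are over those that passed the filter, of which Cdk1, Foxm1 and Hmmr did so through the ischemic kidneys alone, and are not read as a result. Genes called between the sets numbered 1, and 6 with no filter, 0 with only the 2 groups compared, 44 with DESeq2, 0 with limma-trend and 0 to 7 without 1 kidney. The mean summed CPM of 73.8, 119 and 169 became 32.1, 97.8 and 148 without Cks2 and 7.66, 30.5 and 46.0 over the members with a mean under 5 CPM, both chosen after the values were seen.

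Leaving out 1 kidney turned the sign of 4 differences, none of which was called. In set A the log2 fold change of Ect2 ran from -0.25 (without control replicate 1) to 0.52, with -0.17 without set A replicate 3, and that of Ube2c from -0.20 (without set A replicate 3) to 1.47. Between the sets, Cks2 ran from -0.09 to 0.10 (without set A replicate 2), with 0.03 without set B replicate 3, and Kif23 from -0.03 (without set B replicate 4) to 0.75. Cks2, Kif4 and Top2a kept their calls against control in all 19 alternatives in both sets, as did Plk1 and Kif23 in set B. Cdk1 lost its call in 7 of 19 alternatives in set A and 12 of 18 in set B, since it was not tested with only the 2 groups compared. The cause of these shifts was not tested. Of 531 single-gene values, 494 kept their direction and side of the threshold.

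The kidneys share replicate numbers only. Deviations of kidneys with the same number correlated between -0.055 and 0.045, so the numbers do not pair the samples. With the replicate number as a block, 5 members were called in set A, with Prc1 in place of Cdk1, and 7 in set B, with Kif2c and Tpx2 in place of Cdk1. The 14 genes under the filter could not be tested. A 0 in 1 kidney beside over 9 counts in another of its group was found for 27 members, and the part of depth in these zeros was not tested.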
